A study of Mus musculus with 12 samples.

Results

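The genes described here encode hair keratins and the proteins packed between them, and 64 of the 19938 genes measured in this skin series were members. They were taken by symbol: every gene whose symbol on the array platform begins with Krtap, keratins Krt25 to Krt28, Krt31 to Krt36, Krt71 to Krt75 and Krt81 to Krt86, and trichohyalin (Tchh), each where a probe set carried that symbol alone. Each member had 1 such probe set. By role they were 8 keratins of the inner root sheath, trichohyalin, 1 keratin of the companion layer (Krt75), 7 type I and 3 type II keratins of the hair shaft, and 44 keratin-associated proteins. Another 15 probe sets of these families carry several symbols and named no gene here.

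The series set 12 Affymetrix arrays of skin from female Balb/c mice side by side. A first group of 3 mice was untreated, and groups of 3 were sampled 1.5 h, 6 h or 24 h after an intradermal dose of RNAdjuvant, an immune stimulant of RNA complexed with a cationic peptide, at 25 mg as labelled (the unit was not checked). The controls were untreated, and mice injected with carrier alone were not analysed here. Neither body site, age, hair cycle stage, clock time nor array batch is given in the sources used here. The labels call the 3 samples of a group biological replicates, so p-values measure the spread between them, and this number limits the precision. Epidermal Krt10, a keratin of the upper epidermal layers, lay between 12.39 and 12.67 on the log2 intensity scale in every array. The median of 11 epidermal genes lay between 11.48 and 12.08, and that of 24 skeletal muscle genes between 10.77 and 11.62.

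Hair is made in cycles. In the growing phase, cells of the hair bulb differentiate into an inner root sheath, hardened by its own keratins and by trichohyalin, and into the shaft inside it, where hair keratins form filaments and keratin-associated proteins cross-link and surround them. In the resting phase the bulb has regressed and these genes are known to be little expressed, while the keratins of the epidermis are made throughout.

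Untreated replicate 2 stood apart from the other 11 arrays in these genes. It was the highest of the 12 arrays in 59 of 64 members (92.2%), against 6.65% of all genes. In 49 members (76.6%) it lay over 1 log2 unit, a doubling of intensity, above each of the other 11 arrays, and only 69 genes of all those measured (0.346%) did so. The median of the 64 members was 7.63 in untreated replicate 2, against 4.89 and 4.96 in untreated replicates 1 and 3 and 4.57 to 5.03 in the 9 treated arrays, whereas the median of all genes was 6.19 to 6.27 in every array. Biopsies are bulk tissue, so more cells of a type and more RNA per cell cannot be told apart. Calls and changes against the untreated group are therefore given with and without this array.

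**Figure D1:**
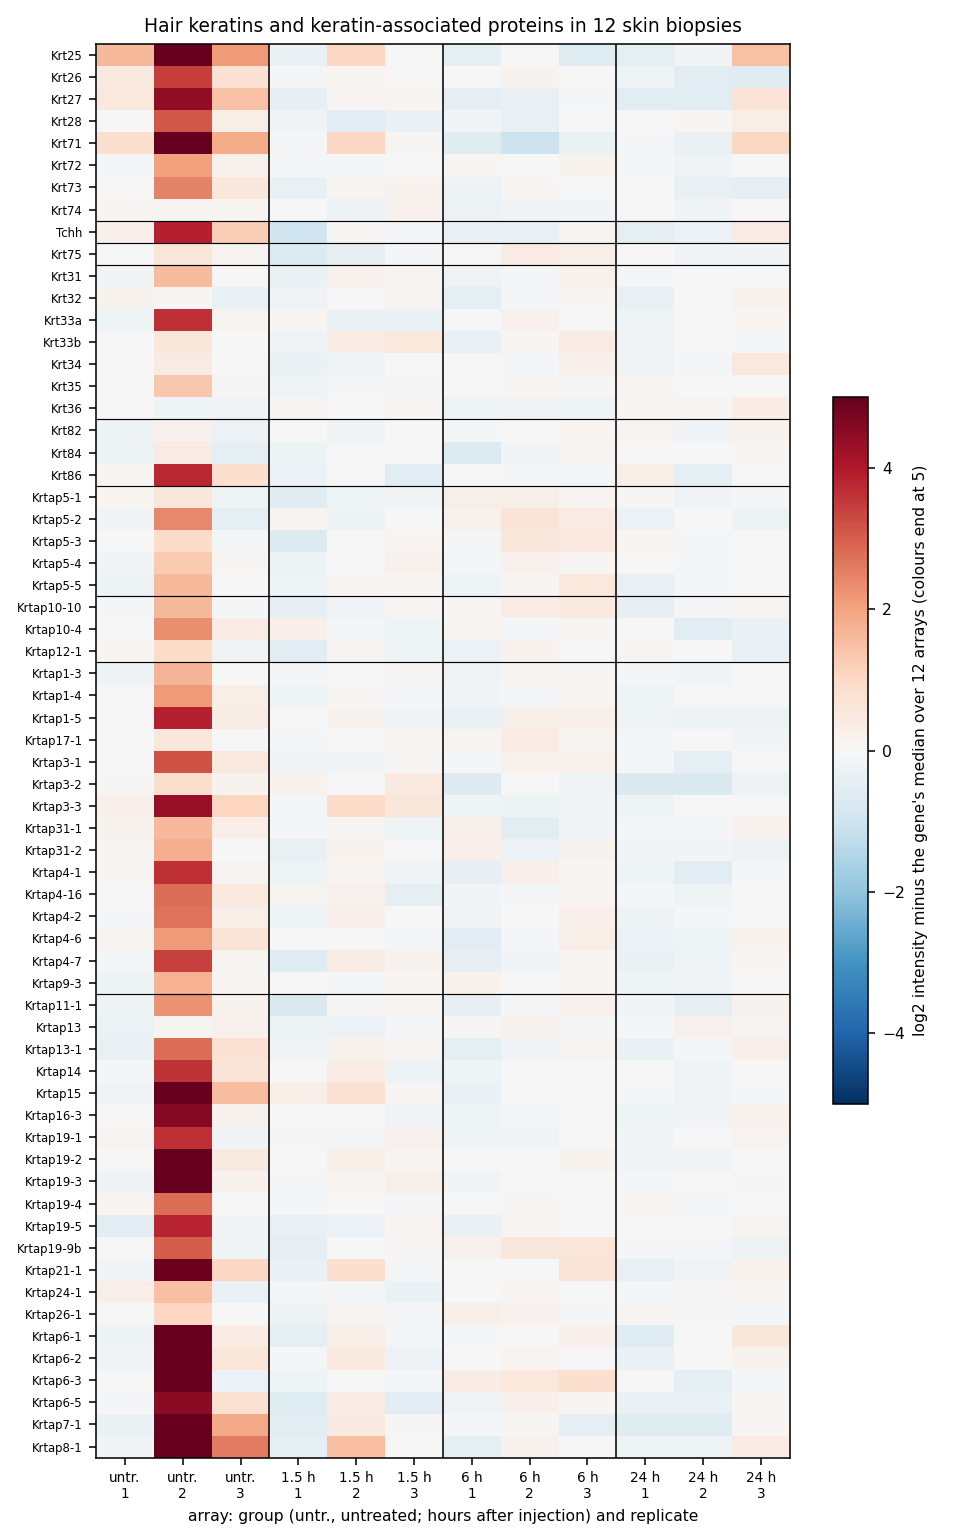
Heat map of the 64 members (down the page, by role and, for keratin-associated proteins, by chromosome 7, 10, 11 and 16) in the 12 arrays (across, by group and replicate); colour is log2 intensity minus the gene's median over the 12 arrays, ending at 5. The column of untreated replicate 2 is red in nearly all members, and untreated replicate 3 is paler but above the 9 treated arrays in 28 members.

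The promoters of 5 members are printed because the results turn on these genes: Krt25 and Krt71, lower at 6 h, Krtap3-2, lower at 24 h, Krtap8-1, with the widest range over the arrays, and Krt36, with little spread. Each sequence holds 250 bases before and 50 after the annotated start of the gene, 5′ to 3′ on its own strand, from RefSeq on build GRCm38.p6. Capitals mark TATAAA, the core of a TATA box, or CTTTGA, the core bound by Lef1 and Tcf proteins, searched on both strands without overlap between the motifs.
Krt25, chr11:99322902-99323201, minus strand: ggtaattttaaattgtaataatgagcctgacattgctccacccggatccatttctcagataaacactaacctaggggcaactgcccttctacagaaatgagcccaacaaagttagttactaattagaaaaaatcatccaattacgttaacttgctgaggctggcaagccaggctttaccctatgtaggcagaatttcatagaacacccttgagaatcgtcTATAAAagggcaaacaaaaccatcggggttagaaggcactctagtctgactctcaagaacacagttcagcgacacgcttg
Krt71, chr15:101743048-101743347, minus strand: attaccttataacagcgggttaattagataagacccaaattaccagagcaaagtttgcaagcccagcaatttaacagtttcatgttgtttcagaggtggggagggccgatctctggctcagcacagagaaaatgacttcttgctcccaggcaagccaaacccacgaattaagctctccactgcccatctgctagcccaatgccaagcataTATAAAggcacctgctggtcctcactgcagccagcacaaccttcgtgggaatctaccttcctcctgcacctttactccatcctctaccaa
Krtap8-1, chr16:89487903-89488202, minus strand: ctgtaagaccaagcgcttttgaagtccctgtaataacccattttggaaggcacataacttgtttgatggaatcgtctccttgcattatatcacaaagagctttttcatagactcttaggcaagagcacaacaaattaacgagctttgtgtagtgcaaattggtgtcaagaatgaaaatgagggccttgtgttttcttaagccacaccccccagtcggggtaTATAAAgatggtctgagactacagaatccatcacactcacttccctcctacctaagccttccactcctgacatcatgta
Krtap3-2, chr11:99556804-99557103, minus strand: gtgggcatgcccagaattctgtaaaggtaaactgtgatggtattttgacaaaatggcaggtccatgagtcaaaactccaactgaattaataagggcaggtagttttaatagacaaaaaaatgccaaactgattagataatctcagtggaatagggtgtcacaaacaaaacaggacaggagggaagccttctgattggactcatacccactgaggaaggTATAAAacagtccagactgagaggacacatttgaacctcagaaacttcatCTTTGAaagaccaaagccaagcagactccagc
Krt36, chr11:100105577-100105876, minus strand: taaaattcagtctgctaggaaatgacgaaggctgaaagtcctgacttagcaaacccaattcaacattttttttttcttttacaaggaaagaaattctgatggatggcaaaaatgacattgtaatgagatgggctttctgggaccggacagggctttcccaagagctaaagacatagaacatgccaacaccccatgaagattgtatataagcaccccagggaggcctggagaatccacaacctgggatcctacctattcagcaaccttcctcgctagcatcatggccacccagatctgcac

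TATAAA stood in 44 of the 56 member promoters in the RefSeq table (78.6%), against 14.2% of 27025 promoters of the same length. On the gene's own strand, with the first base 40 to 20 bases before the start, it stood in 31 members (55.4%), against 2.22% of all promoters. It began at position -30 in Krt25, -40 in Krt71, -29 in Krtap8-1 and -32 in Krtap3-2, and Krt36 had neither motif. CTTTGA was found in 20 member promoters (35.7%), against 16.2% of all promoters, and AGATAA, the core bound by GATA proteins, in 14 (25%), against 11.4%. A match describes these letters only, and binding was not measured.

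Of the 8 inner root sheath keratins, 2 passed the test as lower at 6 h, and none passed at 1.5 h or 24 h. At 6 h, Krt25, a type I keratin of this sheath, read 4.43, 4.88 and 4.31 in the treated arrays, against 6.51, 10.74 and 7.03 in untreated skin. Every 6 h array lay below every untreated array. The log2 change was -3.55 ± 0.84 (SE; 11.7-fold lower, limma adjusted p = 0.0240), and without untreated replicate 2 it was -2.23 ± 0.49 (4.69-fold, adjusted p = 0.0228).

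Krt71, the type II keratin that pairs with such type I partners in all layers of the inner root sheath, read 4.75, 4.32 and 5.01 at 6 h, against 6.16, 10.49 and 7.20 in untreated skin. Again the groups did not overlap. Its log2 change was -3.26 ± 0.79 (SE; 9.55-fold lower, limma adjusted p = 0.0272), and -1.99 ± 0.43 without untreated replicate 2 (3.97-fold, adjusted p = 0.0216). These 2 were the only members called at 6 h among 64 (3.12%), where 6.09% of all genes were called in either direction and 2.71% were called lower. The direction and the call of both held without the outlying array. Both calls were lost when 1 of the 6 h arrays was left out, with adjusted p values of 0.0525 to 0.0788 for Krt25 and 0.0526 to 0.0968 for Krt71 over the 3 such fits.

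At the other times neither gene passed the test. Krt25 read 4.57, 5.96 and 4.92 at 1.5 h and 4.47, 4.77 and 6.36 at 24 h, and each of these lay below the lowest untreated array. Its log2 change was -2.94 at 1.5 h (limma adjusted p = 0.0918) and -2.89 at 24 h (adjusted p = 0.0872), or -1.62 and -1.57 without untreated replicate 2. Over the 3 times together the moderated F test gave an adjusted p of 0.0424, where 11.4% of all genes were called and 2 of 64 members. Krt71 read 5.24, 6.38 and 5.42 at 1.5 h and 5.28, 5.01 and 6.39 at 24 h, which overlap the untreated range. In both genes 24 h replicate 3 and 1.5 h replicate 2 were the highest treated arrays.

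Krt26, a type I keratin known in human hair from the cuticle of the inner root sheath, separated all 3 untreated arrays from all 9 treated ones. It read 3.87, 6.85 and 4.14 in untreated skin, 3.34, 3.50 and 3.39 at 1.5 h, 3.40, 3.57 and 3.43 at 6 h and 3.20, 2.88 and 2.79 at 24 h. Only Krt25 and Krt26 among the members did so (3.12%), against 3.08% of all genes. At 24 h it was 3.99-fold lower than in untreated skin (limma adjusted p = 0.0633). Without untreated replicate 2 the log2 change was -1.05 ± 0.14 (SE; 2.07-fold lower) with an adjusted p of 0.0010, which passed the test. That fit has only 2 untreated arrays, at 3.87 and 4.14. Every Krt26 value but that of untreated replicate 2 lay below 5, so this is a difference between dim values.

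Krt27 and Krt28, the other type I sheath keratins, were also highest in untreated replicate 2. Krt27 averaged 5.34 ± 0.29 at 1.5 h, 5.08 ± 0.20 at 6 h and 5.27 ± 0.69 at 24 h, against 7.55 ± 2.04 in untreated skin (SD, n = 3 each), where replicate 2 alone read 9.84. Krt28 averaged 3.75 ± 0.18 at 1.5 h, 3.94 ± 0.20 at 6 h and 4.22 ± 0.16 at 24 h, against 5.27 ± 1.70 in untreated skin, where replicate 2 read 7.22. The smallest limma adjusted p of Krt27 was 0.0554, at 6 h (0.0523 without untreated replicate 2), and that of Krt28 was 0.174, at 1.5 h.

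Among the type II sheath keratins, Krt72 and Krt73, both known from the sheath cuticle, were high in untreated replicate 2. Krt72 read 7.09 in untreated replicate 2, against 4.87 to 5.26 in the other 11 arrays. Krt73 read 7.62 there, 5.72 in untreated replicate 3, the next highest, and 4.67 to 5.33 in the remaining arrays. Krt74, known from the Huxley layer of human hair, did not share the pattern. Its 3 untreated arrays read 3.76, 3.73 and 3.76, and its range over the 12 arrays, 0.51, was the smallest of the 64 members.

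Trichohyalin, which is cross-linked to the sheath keratins as the sheath hardens, read 4.90, 5.96 and 5.82 at 1.5 h, 5.55, 5.53 and 6.01 at 6 h and 5.46, 5.58 and 6.30 at 24 h, against 6.14, 9.79 and 7.11 in untreated skin. Its arrays at 1.5 h and 6 h lay below the untreated ones, while those at 24 h overlapped them. The log2 changes were -2.12, -1.99 and -1.90 in order of time, with limma adjusted p values of 0.115, 0.0922 and 0.151. Leaving out untreated replicate 2, they were -1.06, -0.93 and -0.85.

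**Figure D2:**
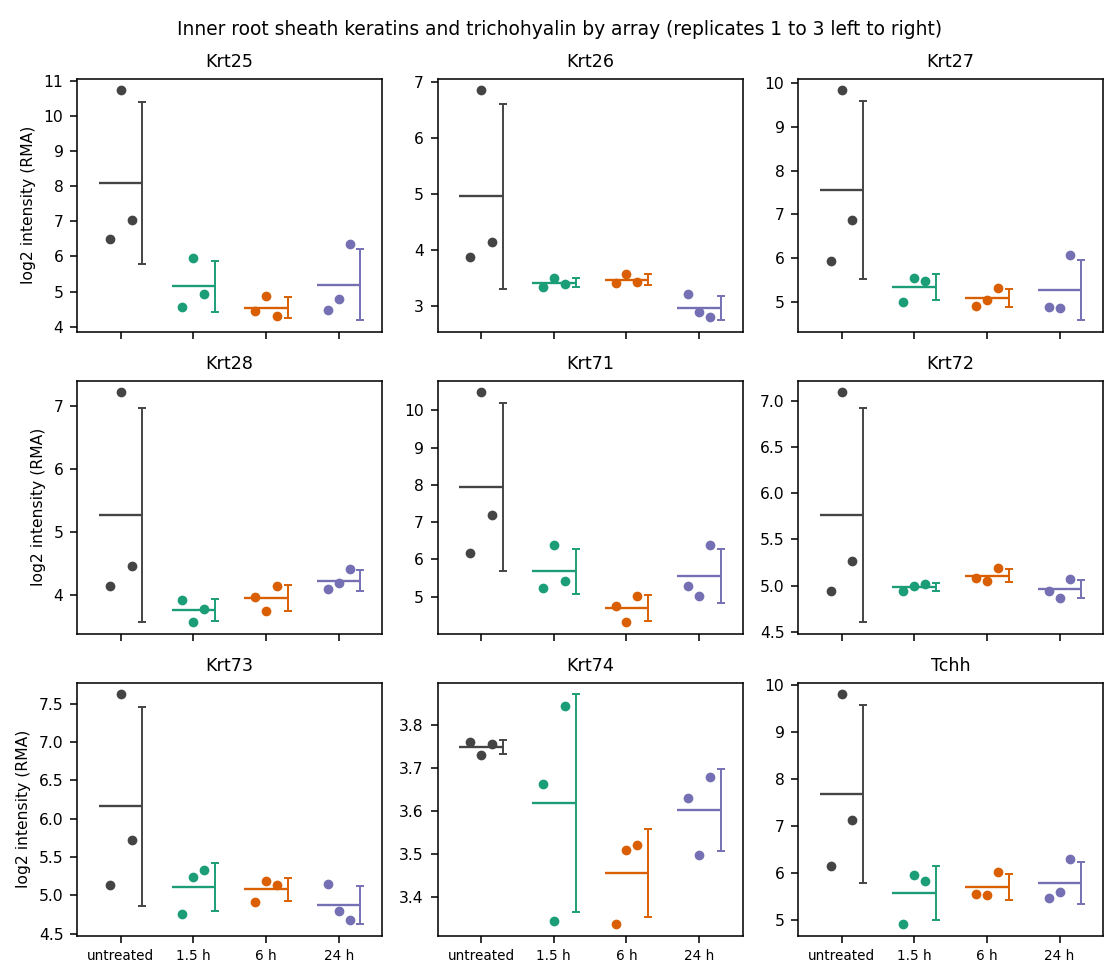
Log2 intensity (vertical axes, each panel on its own scale) of the 8 inner root sheath keratins and trichohyalin in untreated skin and at 1.5 h, 6 h and 24 h; points are arrays with replicates 1 to 3 from left to right, lines are means and bars are SD (n = 3). Untreated replicate 2 is the highest point in every panel but that of Krt74, and untreated replicate 3 lies above all 9 treated arrays in 7 of the 8 keratins.

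Krt75, the keratin of the companion layer between the inner and outer root sheaths, behaved otherwise. It read 7.60, 8.03 and 7.90 at 6 h, against 6.94, 7.22 and 7.54 at 1.5 h, and the 2 groups did not overlap. The log2 change between these times was 0.61 ± 0.17 (SE; limma adjusted p = 0.0363). Its untreated arrays read 7.64, 8.21 and 7.75, close to the 6 h arrays, and no comparison with untreated skin passed the test (adjusted p of 0.0811, 0.941 and 0.328 in order of time). The 6 h minus 1.5 h comparison called 2 members, both higher, of 64 (3.12%), where 13.3% of all genes were called and 5.47% were called higher. With 1 array left out, 0 to 4 members were called, and 4 without untreated replicate 2. The count was 0 without 1.5 h replicate 1 or 2, or 6 h replicate 2 or 3, so the Krt75 call was lost there. It was also lost with no moderation of the variance and with values raised to a floor of 5. Krt75 passed under each scaling, while Krtap5-1, the other member, did not after median centring (adjusted p = 0.0734), quantile normalization (0.0694) or cyclic loess (0.0519). Krt36 was called lower under these 3 scalings (adjusted p of 0.0228, 0.0168 and 0.0300), and Krtap3-2 after median centring (0.0348).

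The hair shaft keratins were less uniform. Of the 7 type I members, untreated replicate 2 was the highest array in 4, and it exceeded the mean of the other untreated arrays by a median of 0.58 log2 units, against 2.89 in the inner root sheath keratins. Krt33a, a keratin of the shaft cortex, read 7.96 in untreated replicate 2 and 3.98 to 4.55 in the other arrays, a 12.8-fold excess over the mean of untreated replicates 1 and 3. Krt31, another cortex keratin, read 6.61 in that array against 4.72 to 5.25 elsewhere. Krt35, made early in the forming shaft, read 7.04 against 5.50 to 5.81. None of the type I shaft keratins passed a test against untreated skin.

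The others each spanned less than 1 log2 unit. Krt33b ranged from 6.74 to 7.65 over the 12 arrays, Krt34 from 4.64 to 5.48 and Krt32, known from the shaft cuticle, from 4.78 to 5.42. Krt36, known also from the papillae of the tongue, read 4.75, 4.81 and 5.02 at 24 h, against 4.43, 4.47 and 4.44 at 6 h. These groups did not overlap, and the log2 change of 0.41 ± 0.10 (SE) passed the test with a limma adjusted p of 0.0488, the only one of 64 members (1.56%) where 3.44% of all genes were called and 2.03% were called higher. Its untreated arrays read 4.66, 4.43 and 4.47, all below the 24 h arrays, with an adjusted p of 0.108 against them. The call was lost when any 1 of the 12 arrays was left out, with an adjusted p of 0.0591 in the fit without untreated replicate 2.

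Untreated replicate 2 was the highest array in all 3 type II shaft keratins, by the most in Krt86. Krt86, of the shaft cortex, read 6.83 there and 3.86 in untreated replicate 3, against 2.52 to 3.36 in the remaining arrays. Krt82, known from the shaft cuticle, ranged only from 4.85 to 5.37, and Krt84, known also from the tongue, from 4.59 to 5.71. No type II member passed a test in any comparison.

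The keratin-associated proteins fall into families by composition, some rich in cysteine and some in glycine and tyrosine. Protein sequences were not used here, so the 44 members are described by chromosome, where their genes lie in clusters: 21 on chromosome 16, 15 on chromosome 11, 5 on chromosome 7 and 3 on chromosome 10. Untreated replicate 2 was the highest array in 43 of the 44. Its excess over the mean of untreated replicates 1 and 3 had a median of 4.17 log2 units on chromosome 16, 1.96 on chromosome 11, 1.71 on chromosome 10 and 1.36 on chromosome 7. Since 1 array makes this difference, no test of it was made.

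**Figure D3:**
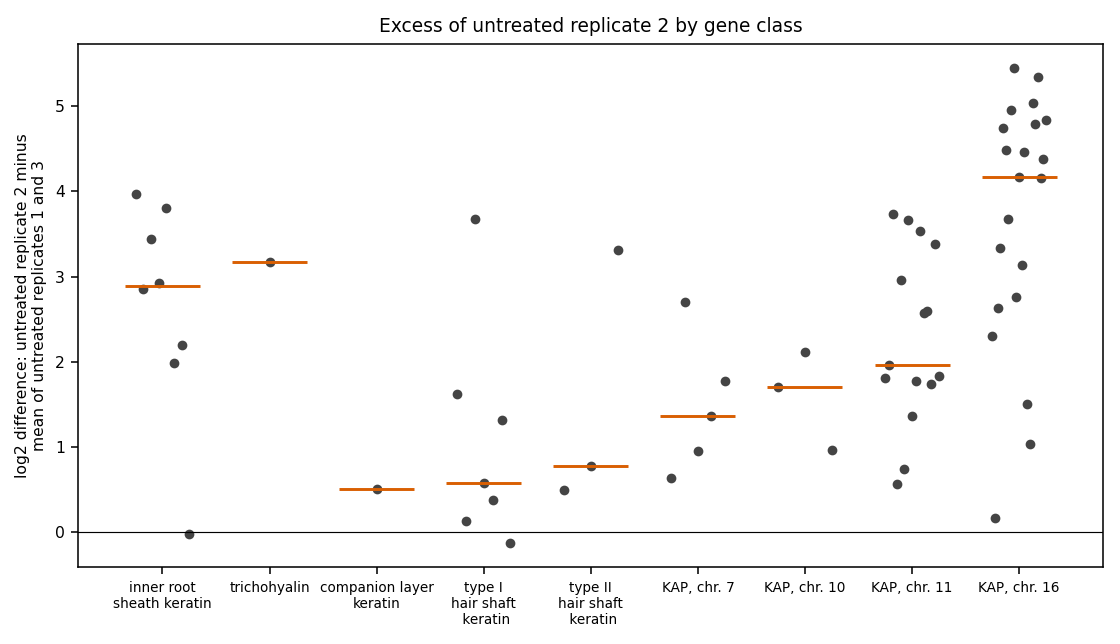
Log2 difference between untreated replicate 2 and the mean of untreated replicates 1 and 3 (vertical axis) for each member (points), by role and, for keratin-associated proteins (KAP), by chromosome; lines are class medians. The points run up to 5.45 for keratin-associated proteins of chromosome 16, with a median of 4.17, while the type I shaft keratins have a median of 0.58.

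The chromosome 16 cluster holds the glycine- and tyrosine-rich families Krtap6, Krtap7, Krtap8, Krtap19 and Krtap21, and the genes named from it here were chosen after their values were seen, except Krtap8-1. Krtap8-1 read 4.58, 6.56 and 5.04 at 1.5 h, 4.56, 5.29 and 5.10 at 6 h and 4.85, 4.85 and 5.47 at 24 h, against 4.93, 11.14 and 7.66 in untreated skin. Its range of 6.57 log2 units was the widest of the 64. Untreated replicate 1 lay among the treated arrays, so the groups overlapped, and no comparison with untreated skin passed the test (limma adjusted p of 0.236, 0.120 and 0.183 in order of time). Its log2 changes were -2.52, -2.93 and -2.85 with all arrays and -0.90, -1.31 and -1.24 without untreated replicate 2. Krtap7-1 had the same shape, with 4.51 to 5.57 in the treated arrays, against 4.78, 10.27 and 6.99 in untreated skin.

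In other members of this cluster untreated replicate 2 was high almost alone. Krtap19-3 read 9.33 in that array and 3.66 to 4.19 in the other 11, an excess of 43.8-fold over the mean of untreated replicates 1 and 3. Krtap6-1 read 8.23 against 2.54 to 3.71, a 33.0-fold excess. Krtap15, of a cysteine-rich family, read 8.46 in untreated replicate 2, 4.58 in untreated replicate 3 and 2.71 to 3.75 in the remaining arrays. Krtap13 was the exception, at 3.06 in untreated replicate 2 and 2.63 to 3.16 elsewhere.

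Krtap6-3 changed direction with the choice of arrays. It read 3.47, 3.63 and 3.89 at 6 h, against 3.10, 8.30 and 2.81 in untreated skin. With all 12 arrays its log2 change was -1.07 ± 0.99 (SE; limma adjusted p = 0.533), and without untreated replicate 2 it was 0.71 ± 0.17 (adjusted p = 0.0355). At 1.5 h it read 2.89, 3.12 and 3.06 and at 24 h 3.12, 2.64 and 3.05, so the 6 h arrays lay above all others but that one.

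On chromosome 11 lie the cysteine-rich families Krtap1, Krtap3, Krtap4, Krtap9 and Krtap17. Krtap3-2 read 8.66, 8.67 and 9.14 at 24 h, against 9.46, 10.25 and 9.57 in untreated skin. The groups did not overlap, and the log2 change was -0.93 ± 0.22 (SE; 1.91-fold lower, limma adjusted p = 0.0345). It was the only member called at 24 h, 1 of 64 (1.56%), where 3.36% of all genes were called and 0.808% were called lower. Without untreated replicate 2 the change was -0.69 ± 0.20 (1.61-fold lower, adjusted p = 0.135) and no longer passed. The call was also lost without untreated replicate 3 (adjusted p = 0.0585) and without 24 h replicate 1 (0.113) or 2 (0.0979).

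At the earlier times Krtap3-2 read 9.57, 9.41 and 9.88 at 1.5 h, overlapping the untreated range, and 8.72, 9.35 and 9.16 at 6 h, below it. Over the 3 times the moderated F test gave an adjusted p of 0.0334. Between 24 h and 1.5 h the log2 change was -0.80 ± 0.22 (SE; limma adjusted p = 0.0794), and 0 of 64 members passed in this comparison, where 2.91% of all genes were called; 1 member passed at an unadjusted p under 0.05 (15.6% of all genes). Without untreated replicate 2 in the fit its adjusted p was 0.0365.

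Krtap3-1 and Krtap17-1, of the same chromosome, differed in spread. Krtap3-1 read 10.37 in untreated replicate 2 and 6.73 to 7.66 in the other 11 arrays. Krtap17-1 ranged only from 7.18 to 7.87. Krtap3-3 read 9.71 in untreated replicate 2, 6.45 in untreated replicate 3 and 5.09 to 6.30 in the remaining arrays, and Krtap1-5 read 8.07 against 3.85 to 4.52.

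The chromosome 7 members belong to the Krtap5 family, which is very rich in cysteine. Krtap5-1 read 6.50, 6.50 and 6.36 at 6 h, against 5.60, 5.98 and 6.04 at 1.5 h, without overlap, a log2 change of 0.58 ± 0.17 (SE; limma adjusted p = 0.0450). Its untreated arrays, at 6.28, 6.78 and 6.00, spanned the 6 h values. Krtap5-3 read 9.08 in untreated replicate 2 and 7.48 to 8.75 in the others, with 6 h replicates 2 and 3 next. Krtap5-2 passed at 6 h only without untreated replicate 2, at 4.90, 5.35 and 5.10 against 4.57 and 4.26 in the other untreated arrays (log2 change 0.70 ± 0.17, SE, adjusted p = 0.0409).

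Against untreated skin, the list as a whole read lower at each time. The 3 comparisons share the untreated arrays, so they are not independent of each other. The median log2 change of the 64 members was -1.01 at 1.5 h, -0.93 at 6 h and -1.06 at 24 h, against 0.02, -0.04 and 0.00 over all genes. The change was below 0 in 59, 59 and 60 members, and in 45.6%, 56.2% and 49.9% of all genes. Without untreated replicate 2 the medians were -0.15, -0.09 and -0.13, against 0.01, -0.05 and -0.01 over all genes. The change was then below 0 in 48, 38 and 48 members (75%, 59.4% and 75%), and in 47.4%, 56.4% and 51.6% of all genes.

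Few members passed the test. At 1.5 h limma called 0 of 64, where 2.2% of all genes were called, and 20 of 64 had an unadjusted p under 0.05 (31.2%, against 17.5% of all genes). The groups did not overlap, with treated arrays lower, in 12 members at 1.5 h (18.8%, against 13.3% of all genes), 9 at 6 h (14.1%, against 19.3%) and 13 at 24 h (20.3%, against 12.4%). The residual SD between replicates had a median of 0.78 log2 units in the members and 0.16 over all genes. Without untreated replicate 2, limma called 0 members at 1.5 h (0.487% of all genes), 2 lower and 2 higher at 6 h (4.28%), and 1 lower at 24 h (2.12%). With all arrays but untreated replicate 1, 4, 12 and 14 members were called in order of time, where 1.4%, 3.71% and 2.72% of all genes were. In the fit without replicate 2 the lower ones were Krt25 and Krt71 at 6 h and Krt26 at 24 h, and the higher ones were Krtap6-3 and Krtap5-2.

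**Figure D4:**
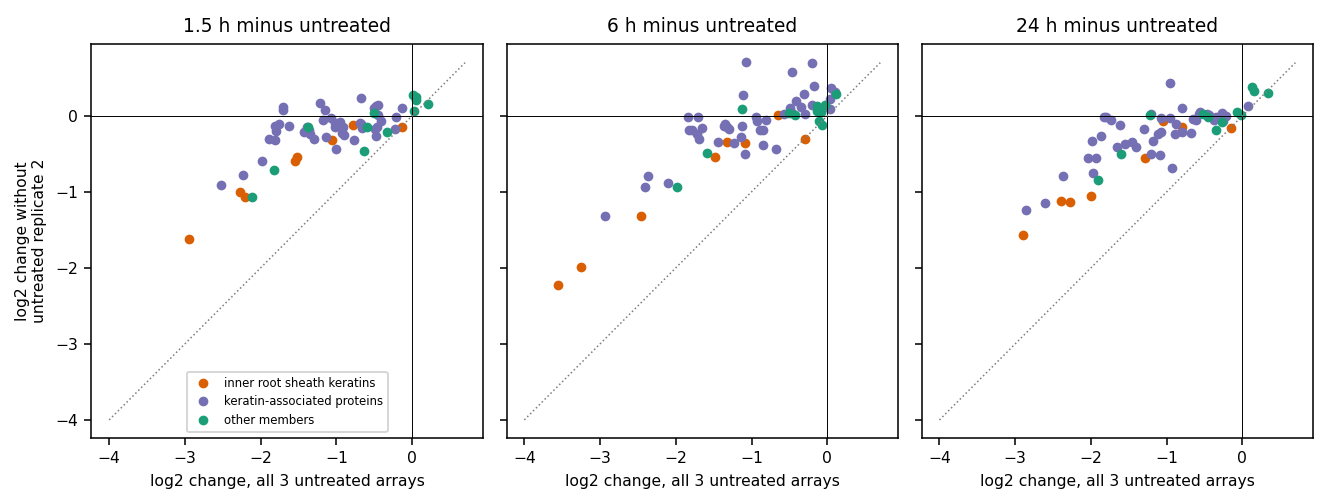
Log2 change of each member against untreated skin at 1.5 h, 6 h and 24 h, with all 3 untreated arrays (horizontal axes) and without untreated replicate 2 (vertical axes); the dotted line marks equal values. At 6 h Krt25 lies furthest to the lower left, at -3.55 and -2.23, while the median of all members is -0.93 on the horizontal and -0.09 on the vertical axis.

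After untreated replicate 2, the array most often highest was untreated replicate 3. By the members' median it was not second, at 4.96 against 5.03 in 6 h replicate 3. Untreated replicate 3 lay above all 9 treated arrays in 28 members (43.8%), against 11.1% of all genes, and above untreated replicate 1 in 47. The gap to the highest treated array was over 0.5 log2 units in 10 members (15.6%), against 0.311% of all genes, and it was over 1 in Krtap7-1 and Krtap8-1. Untreated replicate 1 lay above all treated arrays in 4 members (6.25%, against 13% of all genes). Among the 9 treated arrays, the highest was most often 6 h replicate 2 (14 members), 24 h replicate 3 (13), 1.5 h replicate 2 (12) or 6 h replicate 3 (10). The same treated arrays were most often highest over all genes, among the 11 arrays without untreated replicate 2. Their shares of all genes were 11.2%, 12.9%, 11.4% and 9.83% in the same order, so the order is not particular to the members.

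The spread was smaller once untreated replicate 2 was left out. A range of at least 2 log2 units over the 12 arrays was found in 42 members (65.6%), against 2.37% of all genes. Over the 11 arrays without untreated replicate 2 it was found in 6 (9.38%, against 2.01%), and the median range of the members was 0.89, against 0.64 over all genes. In all, 16 members (25%) lay above 5 in every array, against 63.6% of all genes. Detection calls were not used here, so low values were not called absent.

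The 20 genes outside the list that also lay over 1 log2 unit higher in untreated replicate 2 than in each other array included known hair proteins. S100a3, a calcium-binding protein of the hair cuticle, read 8.14 in that array and 4.86 to 5.74 elsewhere. Dsg4, the desmoglein of the hair shaft, read 5.54 against 3.06 to 3.69. Padi3, an enzyme that citrullinates trichohyalin, read 6.12 against 4.43 to 5.05. The others were Krt87, Tchhl1, Gprc5d, Psors1c2, Crnn, Prr9, Calhm4, Gjb2, Lrrc15, Pinlyp, Ly6g6g and the predicted genes Gm10228, Gm10229, Gm11555, Gm11559, Gm11565 and Gm11567.

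The genes most alike in profile were drawn from the same set. Profiles were scaled to SD 1 and set against the mean of the 42 members with a range of at least 2 log2 units, among 430 other genes with such a range over the 12 arrays. The smallest mean absolute differences were those of Gm10228 (0.08), Gm11559 and Gm11567 (0.14 each), Gm10229 (0.15), Calhm4 (0.19), S100a3 and Crnn (0.21 each), Gm11555 and Prr9 (0.22 each) and Gprc5d (0.25). All 10 were highest in untreated replicate 2, so this likeness rests largely on that array.

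Other lists of skin genes were read beside the members. Of 23 measured hair shaft and root sheath proteins that are no keratins, untreated replicate 2 was highest in 13 and over 1 log2 unit above each other array in 8. None was lower after injection by the test, and 1, Ctsc, a lysosomal protease, was higher at 24 h (log2 change 0.72, limma adjusted p = 0.0147, and 0.0788 without untreated replicate 2). Of 22 follicle regulators of the growing hair, that array was highest in 11 and over 1 log2 unit above the rest in 0. Their median was 7.32 in untreated replicate 2, against 7.22 and 7.09 in untreated replicates 1 and 3.

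Of the 22 regulators, 2 were called lower at 1.5 h, 1 at 6 h and 2 at 24 h, against 1.59%, 2.71% and 0.808% of all genes. Without untreated replicate 2 only 1 of these calls remained, at 24 h. Lower calls at 1.5 h and 24 h were also found among 11 melanocyte genes (2 and 2) and 19 bulge and resting follicle genes (1 and 2). Hoxc13, a homeobox factor that controls hair keratin genes, read 5.49, 5.46 and 5.37 at 1.5 h, against 5.87, 6.62 and 6.16 in untreated skin (log2 change -0.78, limma adjusted p = 0.0258, and 0.0842 without untreated replicate 2). Ptch1, the receptor and target of hedgehog signals, was lower at 1.5 h and 24 h (log2 change -0.76 at each, adjusted p = 0.0316 and 0.0198), and passed at neither without that array. Prdm1, a repressor of transcription, was lower at 24 h with and without it (log2 change -0.63, adjusted p = 0.0195, and 0.0333 without it). Bmp4, a signal of the follicle, was lower at 6 h (log2 change -0.53, adjusted p = 0.0170, and 0.0549 without it).

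Untreated replicate 2 was the highest array in 11 of 27 cell division genes, 5 of 11 melanocyte genes, 5 of 17 dermal papilla genes, 2 of 19 bulge and resting follicle genes, 1 of 11 epidermal genes and 1 of 16 sebaceous gland genes, against 6.65% of all genes. It was over 1 log2 unit above each other array in 0 genes of these 6 lists. Krt5, a keratin of the basal layer, read 12.03 there and 11.90 to 12.15 elsewhere. The epidermal median was 12.08, 11.97 and 11.92 in untreated skin and 11.48, 11.58 and 11.53 at 24 h. At that time 2 of the 11 epidermal genes were called lower by limma (0 without untreated replicate 2), against 0.808% of all genes. The median of the cell division genes was 6.67 in untreated replicate 2, against 6.64 and 6.50 in untreated replicates 1 and 3. The part that any of these cell types had in the members' values was not tested.

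**Figure D5:**
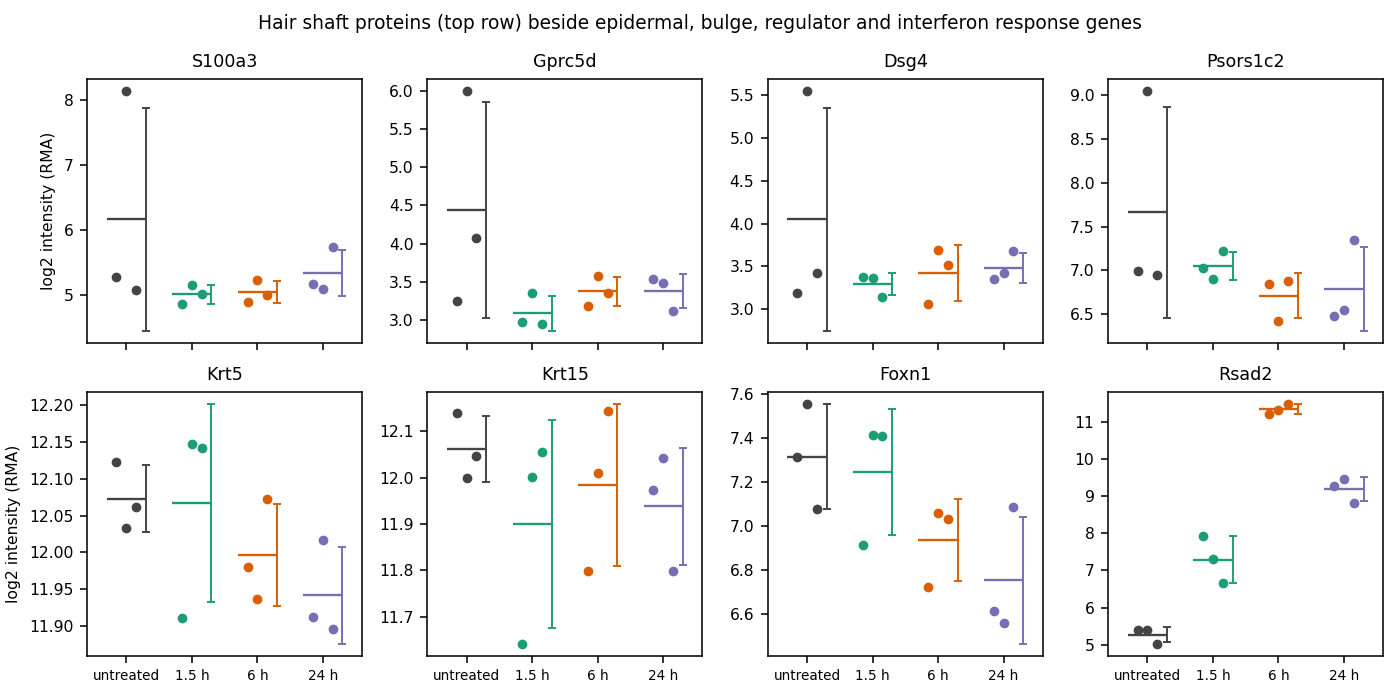
Log2 intensity (vertical axes, each panel on its own scale) in untreated skin and at 1.5 h, 6 h and 24 h, with points for replicates 1 to 3 from left to right, lines for means and bars for SD (n = 3). S100a3, Gprc5d, Dsg4 and Psors1c2 have 1 high point, untreated replicate 2, while Krt5, Krt15 and Foxn1 spread over less than 1 log2 unit and the interferon response gene Rsad2 is higher in all 9 treated arrays.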

How the data were processed

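RNA of 12 mouse skin biopsies was measured on Affymetrix Mouse Gene 1.0 arrays. The deposited values are log2 intensities. Per the submitters' processing notes, the authors used RMA and Affymetrix Expression Console 1.1. Of 35556 probe sets, 21789 had 1 gene symbol in the platform annotation, 1621 had several and 12146 were not listed. Each of 19938 genes was read from its probe set with the highest mean. A linear model of the 4 groups was fitted to all genes in limma 3.58.1 (R 4.3.3; lmFit, then eBayes; residual degrees of freedom 8, prior 5.24). P-values are two-sided and were adjusted by Benjamini-Hochberg over all genes within a comparison, with an adjusted p under 0.05 as the threshold. The steps were tested on simulated data in which genes varied independently. No outlying array was simulated, so this says nothing about the influence of untreated replicate 2.

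The members and lists were chosen with earlier results of these data known, and no test was made of a list. Values are given in single arrays, by range or by group mean and SD. They cover, per role, all keratins and the 4 keratin-associated proteins with the highest mean. Also covered are each member that passed a test and those with the 3 widest and 2 narrowest ranges. Other keratin-associated proteins named were chosen after their values were seen. A split by protein composition had been planned. Protein sequences were not used here, so chromosome was used instead. All 64 members matched the RefSeq gene table and 56 its promoters, for which Python 3.11.15 and pandas 2.3.3 were used. Figures were drawn with matplotlib 3.10.9.

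The replicate numbers were checked for pairing: deviations from group means correlated at -0.22 to 0.33 (median 0.05) in 18 pairs of arrays with the same number and -0.28 to 0.24 (median 0.00) in 36 pairs with different numbers, so the numbers were not taken to pair the mice. Alternatives were a block for the replicate number, fits without each array, other variance models, array weights, and a filter and a floor on dim genes. Further ones were other scalings, the lowest or the mean probe set of a gene, fits of only the groups compared and another threshold. Groups of 3 are too small for an outlier test.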

Additional observations from a re-analysis of the deposited data

Results flagged for a closer look

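Values that moved between times after injection are given for a closer look. Krt75 was higher at 6 h than at 1.5 h by 0.61 on the log2 scale (limma adjusted p = 0.0363), and all 3 arrays at 6 h lay above all 3 at 1.5 h. Krtap5-1 was higher at 6 h than at 1.5 h by 0.58 (adjusted p = 0.0450), likewise without overlap. Krt36 was higher at 24 h than at 6 h by 0.41 (adjusted p = 0.0488), again without overlap. These comparisons do not use the untreated arrays other than for the shared estimate of the spread. The calls of Krt75 and Krtap5-1 were lost without 1.5 h replicate 1 or 2, or 6 h replicate 2 or 3. That of Krt36 was lost without any 1 array. The lowest array in 16 of 64 members was 1.5 h replicate 1 (25%, against 8.34% of all genes). The median of 8 lymph node genes was 6.41 in that array and 5.82 in 6 h replicate 1, against 3.85 to 4.21 in the others. A relation to the 3 changes was not tested.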

How the results depend on the processing

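The 3 calls against untreated skin kept their direction in all alternatives run, but not always their call. Those of Krt25 and Krt71 at 6 h passed in 18 of 25 alternatives and that of Krtap3-2 at 24 h in 19 of 26. Some of these could hardly lose a call. The threshold of 0.1 is looser, and the other choices of probe set left the members' values unchanged, since each member had 1 probe set. Leaving out 1 array at a time, the count of called members lay between 0 and 4 at 1.5 h, 0 and 12 at 6 h and 0 and 14 at 24 h against untreated skin, each highest without untreated replicate 1. It lay between 0 and 4 for 6 h minus 1.5 h, 0 and 1 for 24 h minus 6 h, 0 and 1 for 24 h minus 1.5 h, and 0 and 14 in the F test. The members' median change lay between -1.47 and -0.15 at 1.5 h, -1.42 and -0.085 at 6 h and -1.58 and -0.13 at 24 h, nearest 0 without untreated replicate 2. With the replicate block, 1 member was called for 6 h minus 1.5 h and 0 for 24 h minus 6 h. With a variance trend 0 were called for 24 h minus 6 h. Robust eBayes called 0 at 6 h and 1 in the F test. Array weights called 1 for 6 h minus 1.5 h and 0 for 24 h minus 6 h. With no moderation, and with values raised to a floor of 5, 0 were called at 6 h, at 24 h, for 6 h minus 1.5 h, for 24 h minus 6 h and in the F test. The fit of genes above the median mean holds 10 members but neither Krt25 nor Krt71, so their calls could not pass in it. It called 0 at 6 h, 1 for 6 h minus 1.5 h, 0 for 24 h minus 6 h and 1 for 24 h minus 1.5 h. Median centring, which moved the median of all genes at 1.5 h to 0.12, called 4 in the F test, and cyclic loess called 0 at 24 h. Fits of only the groups compared called 0 at 6 h and 0 for 24 h minus 6 h. At an adjusted p under 0.1, 2 were called at 1.5 h, 5 at 6 h, 3 at 24 h, 1 for 24 h minus 1.5 h and 8 in the F test. Shares of all genes were counted only for the main fit and the fits without untreated replicate 1 or 2. The other counts therefore stand without a background and are not read as results about the members. In the F test the main fit called 3.12% of the members and 11.4% of all genes. Without untreated replicate 1 it called 14 members and 8.54% of all genes. The cause was not tested. Only 16 members lay above 5 in every array, which limits what can be read from the dimmer ones.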

Other observations

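Of 16 measured genes of the sebaceous gland, which opens into the hair follicle, 7 were lower at 1.5 h by the test (4 without untreated replicate 2), 2 at 6 h and 2 at 24 h, against 1.59%, 2.71% and 0.808% of all genes. Cyp2g1, a cytochrome of this gland in mice, read 10.71, 10.17 and 10.57 at 1.5 h, against 12.20, 12.19 and 12.20 in untreated skin (log2 change -1.71, limma adjusted p = 3.02e-05). It stayed lower at 6 h (-0.66, adjusted p = 0.00871) and 24 h (-1.02, adjusted p = 0.000311). Fa2h, which makes hydroxylated fatty acids, was lower at 1.5 h (-1.44, adjusted p = 0.00595). Untreated replicate 2 was highest in 1 of the 16.

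Of 27 cell division genes, 12 were lower at 6 h (8 without untreated replicate 2), against 2.71% of all genes, and 0 passed at 1.5 h or 24 h. Top2a, a topoisomerase of dividing cells, read 6.93, 6.65 and 6.64 at 6 h, against 7.46, 7.69 and 7.34 in untreated skin (log2 change -0.76, limma adjusted p = 0.00178, and 0.0116 without untreated replicate 2). Of 17 dermal papilla genes, 4 were lower at 1.5 h (1 without untreated replicate 2), where 1.59% of all genes were. Among the 4 was Fgf7, a growth factor for epithelial cells (-0.79, limma adjusted p = 0.00535, and 0.00931 without that array). Vcan, a matrix proteoglycan, was higher at 6 h (1.40, limma adjusted p = 0.00187), while 1 dermal papilla gene was lower at that time. These lists and the hair genes were measured in the same biopsies, and a relation between them was not tested.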
